A study of Mus musculus with 68 samples.

Results

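The replication-dependent histone genes were described across mouse embryonic stem cells (ESCs) with altered replisome proteins. Members were all gene rows with a GENCODE symbol that starts with Hist1h, Hist2h, Hist3h or Hist4h, and these were 70 of the 55335 gene rows in each of the 3 count tables. By histone type they comprised 6 genes for the linker histone H1, 20 for H2A, 19 for H2B, 12 for H3 and 13 for H4. By symbol, 56 of them are Hist1 genes on chromosome 13, 10 are Hist2 on chromosome 3, 3 are Hist3 on chromosome 11, and Hist4h4 lies alone on chromosome 6. Hist1h2al starts at base 51202727 of chromosome 13, outside the Hist1 cluster. The annotation lists 67 as protein coding and 3 as pseudogenes (Hist1h2aj, Hist1h2al and Hist3h2bb-ps).

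All libraries were made from untreated cells of the male E14JU line (129/Ola background), grown in serum and LIF on gelatin, by rRNA depletion and strand-specific total RNA-seq. MCM2-2A cells carry mutations in the part of MCM2, a replicative helicase subunit, that binds histones. MCM2-R cells are MCM2-2A cells in which the mutations were reverted. POLE4-KO cells lack POLE4, an accessory subunit of the leading-strand DNA polymerase epsilon. The rescue experiment compared MCM2-R#2, MCM2-2A#2 and the wild-type line WT#1 in 4 cultures each, and every line in it is 1 clone, so genotype and clone cannot be told apart there. The POLE4 experiment compared 3 knockout clones with WT#1 in 3 libraries each, so the knockout and what is particular to the WT#1 clone cannot be told apart. The clone experiment was analysed as 9 MCM2-2A units from 8 clones and 8 WT units from 7 clones, where a unit is the sum of the libraries of 1 clone in 1 of the experiments that the study's sample table calls January, March and August. For MCM2-R#2, the genotype field of the labels reads wild type and the line number differs from that in the count table, so the group rests on the line name. The series describes the replicates as biological, and p-values measure the spread between these cultures, within single clones in the rescue and POLE4 experiments.

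Replication-dependent histone genes supply the nucleosome proteins that package newly copied DNA, and their transcripts accumulate in S phase. Their mRNAs are the only known metazoan mRNAs that normally end in a conserved stem-loop, bound by SLBP, instead of a poly(A) tail. Transcription is driven from dedicated nuclear bodies by NPAT. Because the libraries were depleted of rRNA and not selected for poly(A), such transcripts were counted here. The related replication-independent variants, such as H2afz and H3f3a, are made throughout the cell cycle as polyadenylated mRNA.

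The 3′ stem-loop that defines these mRNAs was found in the GENCODE vM21 transcript of 33 of the 70 members (47.1%), and in 3 of 55380 other genes (0.00542%). Of those 3, Gm20634 and Trim17 overlap members and H2bfm does not. The search covered the transcript strand and allowed 1 alternative base pair in the stem. The H4 genes are set apart by that pair: all 7 H4 members with a match carried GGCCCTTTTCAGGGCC, whereas the 3 H1, 10 H2A, 8 H2B and 5 H3 members with a match all carried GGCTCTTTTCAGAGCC. Examples are shown for the genes on which the comparisons below turn, with the stem-loop in capitals and coordinates on GRCm38 in this order: chr13:23621777-23621802 (minus strand), chr11:58955167-58955192 (plus), chr11:58949344-58949369 (plus), chr13:23576239-23576264 (plus) and chr6:136803993-136804018 (minus).
Hist1h1e: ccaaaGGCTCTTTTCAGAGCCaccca
Hist3h2a: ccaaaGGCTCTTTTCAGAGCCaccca
Hist3h2ba: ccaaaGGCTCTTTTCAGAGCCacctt
Hist1h3d: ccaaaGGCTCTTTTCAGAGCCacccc
Hist4h4: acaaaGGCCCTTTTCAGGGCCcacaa
In these 5 genes the annotated transcript runs on past the stem-loop, by 169 bases in Hist3h2ba, 752 in Hist1h3d, 1153 in Hist1h1e, 1643 in Hist3h2a and 2445 in Hist4h4, so their counts can include RNA beyond the processed end. The other 37 members showed no match, which says only that these letters are not in the annotated transcript.

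Promoter windows from RefSeq (GRCm38.p6, 250 bases before to 50 after the start) matched 61 of the 70 members. Motifs were searched on both strands, and each hit is a letter match and not a shown binding site. The octamer ATTTGCAT stood in 7 of 17 H2A and 7 of 16 H2B promoters and in no H1, H3 or H4 promoter, against 1.74% of 32851 promoters of that length. CCAAT stood in every H1, H2A, H2B and H3 promoter and in 3 of 12 H4 promoters (25%), against 37.4% of all promoters. TATAAA stood in 35 of 61 (57.4%), against 13.6% of all promoters. The promoter of Hist1h2aa, a germ line H2A gene, is shown because it also serves as most of the window of Hist1h2ba, a germ line H2B gene on the other strand: their GENCODE starts lie 305 bases apart, the RefSeq windows share 220 bases, and both genes fell in POLE4-KO cells. The window is chr13:23934187-23934486 on the plus strand, with the octamer, TATAAA and CCAAT letters (either strand) in capitals.
Hist1h2aa: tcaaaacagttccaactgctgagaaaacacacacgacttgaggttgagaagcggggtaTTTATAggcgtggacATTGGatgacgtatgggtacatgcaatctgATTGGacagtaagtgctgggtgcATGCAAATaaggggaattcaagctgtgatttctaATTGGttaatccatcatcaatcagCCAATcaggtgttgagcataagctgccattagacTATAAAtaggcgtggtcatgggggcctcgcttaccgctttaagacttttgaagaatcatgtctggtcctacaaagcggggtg

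Several facts of the libraries and of the counting bear on all comparisons. Gene and repeat counts per library ranged between 18369196 and 67467849 over the 3 tables. Histone genes took 0.817% to 1.10% of gene counts in the rescue, 0.552% to 0.988% in the POLE4 and 1.16% to 1.87% in the clone experiment. Mcm2 stood at 206 to 217 CPM (counts scaled to library size) in MCM2-R#2, 217 to 232 CPM in MCM2-2A#2 and 399 to 440 CPM in WT#1 cultures, so it was low in the reverted line as well. Pole4 was at 2.89 to 8.24 CPM in the knockout libraries and 56.5 to 62.1 CPM in WT#1. Summed markers of embryonic stem cells were at 4544 to 4986 CPM in POLE4-KO#1, 3745 to 4646 CPM in POLE4-KO#2 and 3802 to 4174 CPM in POLE4-KO#3. WT#1 libraries were at 4304 to 4828 CPM, so POLE4-KO#3 lay below all of them. In the rescue experiment the markers were at 4399 to 4948 CPM in MCM2-2A#2 and 4381 to 4920 CPM in WT#1 cultures.

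Near-identical copies limit what single rows can show. Only 19 members had at least 80% of their 76-base windows in 1 gene, 14 had under 20%, and 64 shared at least 1 window with another gene. The tables treat such genes differently. The WT#1 level in the clone table over that in the rescue table had a median of 5.06 among the 14 members under 20%, 2.69 among 15 at 20% to 50%, 1.22 among 22 at 50% to 80%, and 0.659 among the 19 at 80% or more, while the same ratio for the POLE4 table lay between 0.822 and 0.968 in all 4 classes. The pseudogene row Hist1h2aj differed by a factor of 522, and Hist2h3c1 held 3820 counts in the rescue table and 0 in the clone table. How reads with several alignments were counted is not given in the sources used here, so levels were compared only within a table. Hist1h2ao and Hist1h2ap held 34993 and 3321 counts in the rescue table, but 537323 and 539284 counts in the clone table. Reads shared by copies may thus enter several rows there. The clone sums and counts of members may hold the same reads repeatedly. Hist3h2a and the overlapping same-strand gene Trim17 held 21780 and 21596 counts in the rescue table, but 943 and 214 counts in the clone table.

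**Figure D1:**
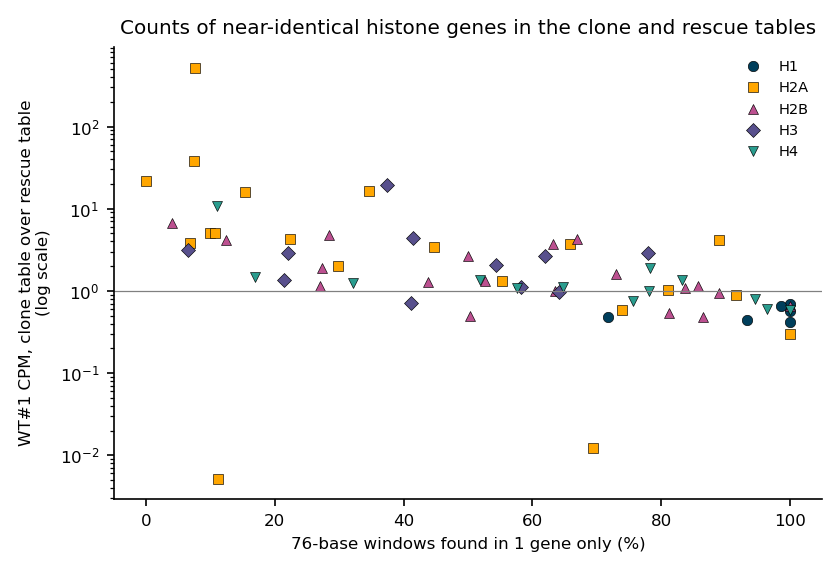
WT#1 CPM in the clone table divided by that in the rescue table (vertical, log scale) against the percentage of a gene's 76-base windows found in 1 gene only (horizontal), 1 point per histone gene with the symbol giving its type. Genes with few unique windows lie mostly above 1 and those at 80% or more mostly below it (medians 5.06 and 0.659), and Hist2h3c1, at 0 in the clone table, is not drawn.

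Levels in WT#1 spanned a wide range. Per kb of annotated exon in the rescue experiment, the H2B gene Hist2h2bb stood at 926 CPM per kb, the H4 genes Hist1h4k at 715 and Hist1h4f at 687, the H1 gene Hist1h1a at 670 (669.6), the H3 gene Hist1h3e at 491 and the H2A gene Hist1h2ak at 473. Hist2h2bb lies inside the lincRNA Gm42743 on the same strand, and their reads may be counted for both. Hist1h1d was at 65.3 CPM per kb of a model of 7425 bases, the longest of a set with a median of 534. The germ line genes were near the floor of the set in plain CPM, with Hist1h2ba at a mean of 6.21 ± 0.978 CPM and Hist1h1t, the testis-specific linker histone, at 10.1 ± 0.767 CPM (SD, n = 4 cultures).

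In the rescue experiment the question was whether the MCM2 mutations, and their reversal, went with another histone transcript level. The summed CPM of all 70 genes was lower in MCM2-2A#2 than in WT#1, and MCM2-R#2 lay between them. The sum was 9070.0, 9606, 9576 and 9331 CPM in MCM2-R#2 cultures, 8062, 8835, 8839 and 8608 CPM in MCM2-2A#2 cultures and 10079, 10057, 11023 and 10138 CPM in WT#1 cultures. No culture of one line reached the range of another. The MCM2-2A#2 mean of 8586 ± 366 CPM was 83.2% of the WT#1 mean of 10324 ± 467 CPM (SD, n = 4 each, log2 ratio -0.27), and the MCM2-R#2 mean of 9396 ± 249.7 CPM was 109% of the MCM2-2A#2 mean and 91.0% of the WT#1 mean. In bulk RNA, fewer cells in S phase and less histone RNA per cell cannot be told apart.

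**Figure D2:**
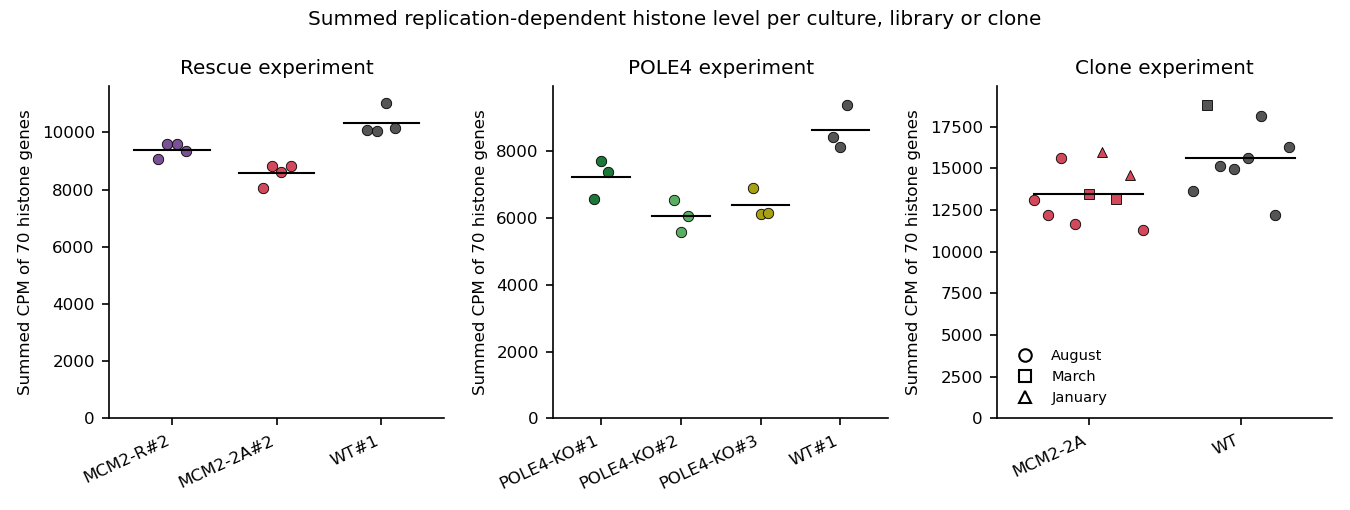
Summed CPM of the replication-dependent histone genes, 1 point per culture (rescue), library (POLE4) or clone and experiment (clones, with symbols for August, March and January), and a line at each group mean; the vertical axes start at 0. The MCM2-2A#2 cultures lie between 8062 and 8839 CPM, below all WT#1 cultures (10057 to 11023 CPM); the POLE4-KO libraries lie below all WT#1 libraries; MCM2-2A and WT clones overlap.

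All 5 types shared the difference between MCM2-2A#2 and WT#1. The MCM2-2A#2 sums were 81.6% of the WT#1 sums for H1, 86.9% for H2A, 82.6% for H2B, 83.8% for H3 and 83.0% for H4, with no overlap of cultures in any type. For single genes the differences were small against the fold limit. With edgeR's quasi-likelihood test and Benjamini-Hochberg adjustment over all genes tested, a gene was called at an adjusted p below 0.01 and a log2 change beyond 0.58. One member, the H2A gene Hist2h2aa1, was called lower (1 of 70, against 1.08% of all genes) and 0 were called higher (1.68% of all genes, DESeq2 also 0, and 1 member higher at an unadjusted p below 0.05). Hist2h2aa1 had 1.16, 1.03, 1.41 and 1.03 CPM in MCM2-2A#2 and 1.59, 4.55, 3.90 and 2.08 CPM in WT#1 cultures (-1.43 ± 0.32 on the log2 scale, SE, adjusted p = 0.00964). Its copies share most windows with other genes, and the call was lost in 11 of 18 alternatives, among them leaving out any of 6 cultures one at a time.

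Without a fold limit the set moved broadly. At an adjusted p below 0.05, 37 of 70 members were lower in MCM2-2A#2 (8.45% of all genes) and 0 were higher (6.38%). The groups did not overlap for 37 members, all lower (11.5% of all genes, and 7.98% higher). The log2 fold change was below 0 in 67 of 70 (52.7% of all genes), with a median of -0.25 over the members and -0.01 over all 17098 genes tested. By type, 5 of 6 H1, 6 of 20 H2A, 12 of 19 H2B, 6 of 12 H3 and 8 of 13 H4 genes passed, with medians of -0.33, -0.18, -0.29, -0.25 and -0.28 in that order.

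**Figure D3:**
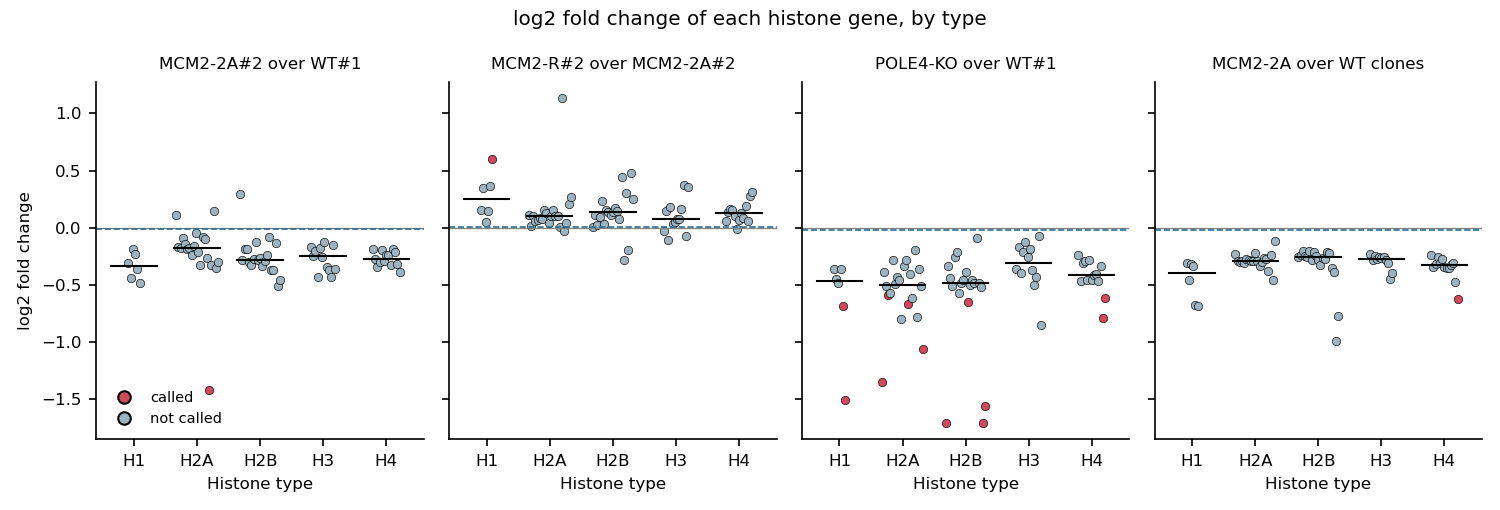
log2 fold change (vertical) of each histone gene tested, by histone type (horizontal), for 4 comparisons; black lines are medians of a type, the dashed line is the median of all genes tested, and red points are genes called at an adjusted p below 0.01 and a log2 change beyond 0.58. Most members lie below 0 in MCM2-2A#2, POLE4-KO and the MCM2-2A clones (medians -0.25, -0.46 and -0.29) and above 0 in MCM2-R#2 over MCM2-2A#2 (median 0.11).

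The linker histone genes, whose products bind DNA between nucleosomes, have 93.4% or more of their windows unique, except Hist1h1e at 71.8%. Hist1h1e overlaps the H2B gene Hist1h2be on the same strand over 496 of its 1930 bases. Reads there may be counted for both. Hist1h1b (all windows unique) had 366, 381, 383 and 338 CPM in MCM2-R#2, 281, 309, 292 and 274 CPM in MCM2-2A#2 and 382, 391, 425 and 367 CPM in WT#1 cultures. Hist1h1e had 391, 437, 367 and 347 CPM in MCM2-R#2, 279, 326, 291 and 301 CPM in MCM2-2A#2 and 365, 375, 417.2 and 377 CPM in WT#1. Hist1h1t had 10.9, 10.1, 12.4 and 10.0 CPM in MCM2-R#2, 7.02, 8.71, 6.79 and 6.26 CPM in MCM2-2A#2 and 9.66, 11.2, 9.47 and 9.96 CPM in WT#1. In all 3 genes every MCM2-2A#2 culture was below every culture of both other lines, which overlapped each other. The log2 changes of MCM2-2A#2 over WT#1 were -0.44 ± 0.06 for Hist1h1b (edgeR adjusted p = 0.000271), -0.36 ± 0.07 for Hist1h1e (0.00455) and -0.49 ± 0.11 for Hist1h1t (0.00949). Hist1h1a (-0.31, adjusted p = 0.00141) and Hist1h1d (-0.23, 0.0241) also fell by edgeR at 0.05, whereas Hist1h1c, at -0.19, missed it (0.0624).

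Core histone genes of the Hist2 cluster differed from each other, and Hist2h2ab, an H2A gene, was at 0.14 in MCM2-2A#2 over WT#1 (edgeR adjusted p = 0.523). The H2B gene Hist2h2bb had 331, 341, 341 and 331 CPM in MCM2-R#2, 267, 266, 284 and 274 CPM in MCM2-2A#2 and 356, 341, 392 and 322 CPM in WT#1 cultures. The H3 gene Hist2h3b had 138, 156, 152 and 137 CPM in MCM2-R#2, 102, 107, 124 and 117 CPM in MCM2-2A#2 and 137, 143, 162 and 164 CPM in WT#1. For both genes the MCM2-2A#2 cultures lay below all cultures of the other lines. By edgeR, Hist2h2bb changed by -0.37 (adjusted p = 0.000575) and Hist2h3b by -0.43 (0.00205) in MCM2-2A#2 over WT#1, although only 21.5% of Hist2h3b windows are unique to it. The H3 gene Hist1h3d of the large cluster changed by -0.44 (edgeR adjusted p = 0.000953). The germ line core histone genes, unlike Hist1h1t, did not follow: Hist1h2ba was at 0.29 (adjusted p = 0.143) and Hist1h2aa at 0.11 (0.462), and their cultures overlapped those of WT#1.

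After reversal of the mutations the set lay above MCM2-2A#2. Hist1h1t was called higher in MCM2-R#2 over MCM2-2A#2 (1 of 70, against 0.526% of all genes; 0.60 ± 0.11 by edgeR, adjusted p = 0.00572) and 0 were called lower (0.842% of all genes, 0 members lower at an unadjusted p below 0.05, DESeq2 also 0). The Hist1h1t call was lost with the first run of each culture alone, with run as a covariate and on leaving out any of 6 cultures one at a time. At an adjusted p below 0.05, 9 of 70 rose (4.99% of all genes), among them Hist1h1b (0.35, 0.00343), Hist1h1e (0.37, 0.00751), Hist2h2bb (0.30, 0.00530) and Hist2h3b (0.37, 0.00891), and 7 of 70 were below 0 (47.9% of all genes). The groups did not overlap for 13 members, all higher (8.4% of all genes). The H1, H2A and H2B sums of the cultures were separate, at 115%, 108% and 109.9% of MCM2-2A#2, and the H3 and H4 sums overlapped (105% and 108%).

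MCM2-R#2 did not reach the WT#1 sum. Over WT#1, edgeR called 0 of 70 members (0.269% of all genes called lower and 0.0292% higher), with 22 lower and 2 higher at an unadjusted p below 0.05, and DESeq2 called 1 lower. Only the H2B gene Hist1h2bg fell at an adjusted p below 0.05 (-0.29, edgeR adjusted p = 0.0235; 0.538% of all genes), and the median of the members was -0.13. The H3 and H4 sums, at 88.1% and 89.9% of WT#1, did not overlap those of WT#1, whereas the H1, H2A and H2B sums did. These 3 comparisons share cultures, and the run of the second sequencing holds no MCM2-R#2 culture, so line and run cannot be fully told apart.

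By median, related lists moved less than the histone genes in MCM2-2A#2, although several replication-independent variants also fell. Over WT#1 the median was 0.03 for 38 S phase genes and 0.03 for 49 G2 and M phase genes, -0.07 for 25 histone mRNA factors and 0.00 for 13 rows of other RNAs without poly(A). Slbp, which encodes the stem-loop binding protein, was at -0.00 (edgeR adjusted p = 0.985) and Npat at -0.02 (0.837). Among 11 replication-independent variants, with a median of -0.07, the macroH2A gene H2afy2 was called lower (-0.63, adjusted p = 0.000664), the linker histone variant H1f0 was at -0.53 (0.00442), H3f3a at -0.25 (0.00526), H2afz at -0.25 (0.0377) and H3f3b at -0.07 (0.307). By edgeR at an adjusted p below 0.05, 5 of the 11 variants were lower (8.45% of all genes) and 0 were higher (6.38%). A fall is thus not particular to the replication-dependent genes. The part of cell cycle stage in the histone difference was not tested beyond these values.

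**Figure D4:**
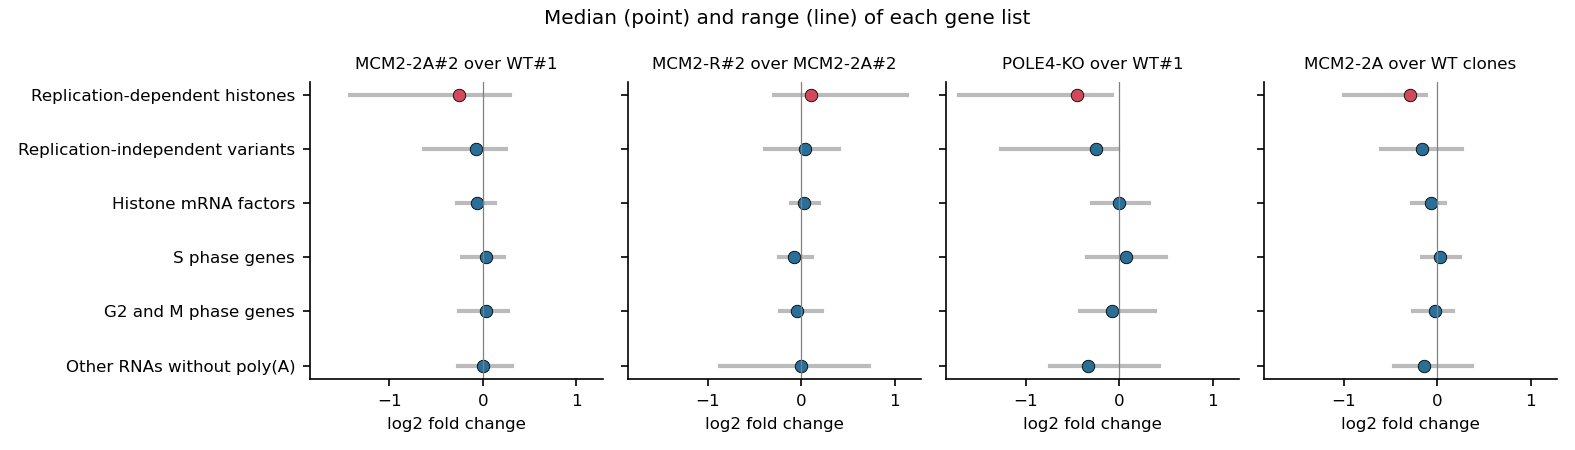
Median (point) and lowest to highest value (line) of the log2 fold change of each gene list, for 4 comparisons. The replication-dependent histone genes (red, top) have medians of -0.25, 0.11, -0.46 and -0.29, while the S phase genes stay between -0.07 and 0.07.

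In POLE4-KO cells the summed level was lower and 12 members were called. The summed CPM was 6569, 7684 and 7374 in POLE4-KO#1, 6537, 5582 and 6044 in POLE4-KO#2, 6895, 6094 and 6131 in POLE4-KO#3 and 8419, 8103 and 9359 in WT#1 libraries. Every knockout library was below every WT#1 library. The mean of the 9 knockout libraries, 6545 ± 676 CPM, was 75.9% of the WT#1 mean of 8627 ± 653 CPM (SD, n = 9 and 3, log2 ratio -0.40). By clone the sum was 83.6% of WT#1 in POLE4-KO#1, 70.2% in POLE4-KO#2 and 73.9% in POLE4-KO#3.

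For the mean of the 3 clones over WT#1, edgeR called 12 of 70 members lower (3.71% of all genes) and 0 higher (2.13% of all genes, 0 members higher at an unadjusted p below 0.05, DESeq2 also 0). At an adjusted p below 0.05, 55 fell (12.9% of all genes). All 70 changes were below 0 (53% of all genes), the groups did not overlap for 28 (3.64% of all genes), and the median was -0.46 over the members and -0.02 over all 16864 genes tested. The calls fell on 2 H1, 4 H2A, 4 H2B, 0 H3 and 2 H4 genes, with type medians of -0.47, -0.50, -0.49, -0.31 and -0.41. With the library number of the knockouts as a block, 14 were called, adding the H2A gene Hist2h2aa2 (-0.81) and the H3 gene Hist2h3c2 (-0.88). The share of all genes called in that fit was not taken, so 14 against 12 is not a result about the members. For H3, 7 of 12 members fell at an adjusted p below 0.05, and 9 at an unadjusted one.

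The largest changes were in the Hist3 and germ line genes. The H2B gene Hist3h2ba had 9.33, 9.81 and 11.8 CPM in POLE4-KO#1, 7.62, 6.51 and 6.61 CPM in POLE4-KO#2, 21.9, 14.8 and 20.2 CPM in POLE4-KO#3 and 35.6, 29.9 and 43.3 CPM in WT#1 libraries (-1.71 ± 0.12 by edgeR, adjusted p = 4.80e-08). Its neighbour on chromosome 11, the pseudogene Hist3h2bb-ps, changed by -1.57 ± 0.18 (adjusted p = 1.57e-05) and Hist3h2a by -1.07 ± 0.12 (1.06e-05), so all 3 Hist3 members were called. In the clone table Hist3h2ba was at 19.3 and 20.6 CPM in WT#1, at 18.5 CPM in WT#4 and at 6.76 to 10.9 CPM in the other 5 WT clones. Genes around them were looked at after these values were seen. Trim17 overlaps Hist3h2a over its full length on the same strand and was called at -1.07. In the POLE4 experiment Hist3h2a held 11816 counts and Trim17 11764. Their reads may be counted for both, so Trim17 may not be a separate observation. Gm12260 was called at -1.68, whereas Rnf187 (-0.41), Zfp39 (-0.53), Trim11 (0.22) and Iba57 (-0.02) were not called for the mean of the clones.

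The germ line members followed. Hist1h1t, the testis linker histone, had 1.65, 1.55 and 2.42 CPM in POLE4-KO#1, 3.00, 2.27 and 3.73 CPM in POLE4-KO#2, 6.62, 6.07 and 7.12 CPM in POLE4-KO#3 and 8.67, 10.4 and 9.66 CPM in WT#1 libraries (-1.51 ± 0.14 by edgeR, adjusted p = 1.21e-06). Hist1h2aa had 1.81, 1.78 and 1.56 CPM in POLE4-KO#1, 3.33, 1.76 and 3.30 CPM in POLE4-KO#2, 5.53, 2.48 and 5.21 CPM in POLE4-KO#3 and 6.89, 5.50 and 8.88 CPM in WT#1 (-1.36 ± 0.21, edgeR adjusted p = 0.000279). Its divergent partner Hist1h2ba had 1.39, 0.799 and 1.25 CPM in POLE4-KO#1, 1.38, 0.588 and 1.63 CPM in POLE4-KO#2, 3.49, 1.79 and 2.81 CPM in POLE4-KO#3 and 5.17, 4.04 and 5.99 CPM in WT#1 (-1.71 ± 0.22, edgeR adjusted p = 5.50e-05). All 3 are at low level, and for Hist1h2aa 1 library of POLE4-KO#3, at 5.53 CPM, overlapped WT#1. In the clone table the WT units spanned 2.22 to 6.90 CPM for Hist1h1t and 1.71 to 4.47 CPM for Hist1h2aa. For Hist1h2ba they spanned 18.5 to 31.6 CPM. WT clones thus also differed in these genes. Hist1h1t lies in the cluster among genes that changed less, with Hist1h4c, the next gene, at -0.31.

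**Figure D5:**
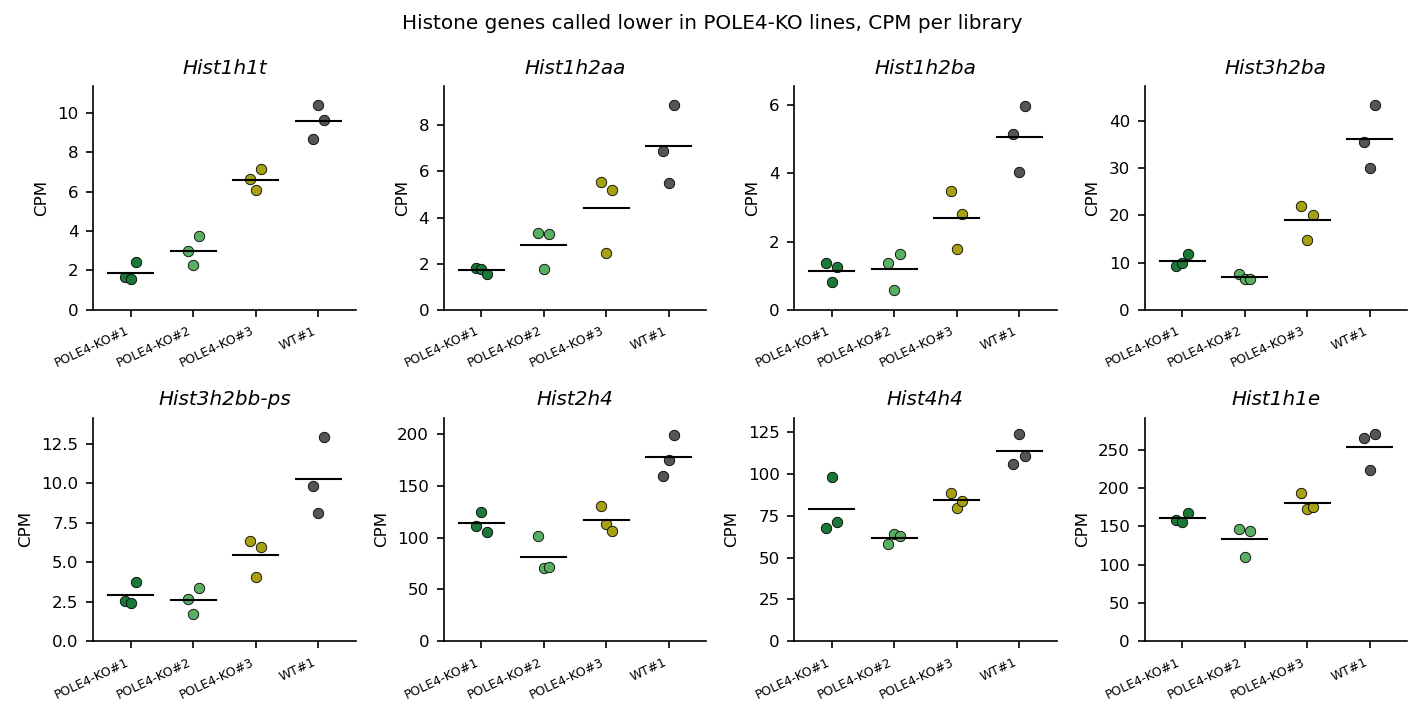
CPM per library (points) and group mean (lines) of 8 histone genes called lower in POLE4-KO over WT#1, with the 3 knockout clones left of WT#1 and each vertical axis starting at 0. Hist1h1t, Hist1h2aa, Hist1h2ba, Hist3h2ba and Hist3h2bb-ps are nearer to WT#1 in POLE4-KO#3 than in the other clones, while Hist2h4, Hist4h4 and Hist1h1e differ less between clones.

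The other called members lie outside the Hist3 and germ line genes. The H4 gene Hist2h4 had 111, 125 and 105 CPM in POLE4-KO#1, 101, 70.9 and 72.0 CPM in POLE4-KO#2, 130.3, 113 and 107 CPM in POLE4-KO#3 and 159, 176 and 199.6 CPM in WT#1 libraries (-0.80 ± 0.10, edgeR adjusted p = 2.80e-05). Hist1h1e had 159, 156 and 167 CPM in POLE4-KO#1, 146, 109.5 and 144 CPM in POLE4-KO#2, 193, 173 and 175 CPM in POLE4-KO#3 and 265, 224 and 270.1 CPM in WT#1 (-0.69 ± 0.08, edgeR adjusted p = 1.28e-05). In both genes the knockout libraries lay below all WT#1 libraries. The H4 gene Hist4h4 was called at -0.61, the H2B gene Hist1h2bm at -0.66, and the H2A genes Hist1h2an and Hist1h2ad at -0.67 and -0.59, the last pair with only 15.4% and 34.6% of windows unique. Leaving out single libraries ended the calls of Hist1h2an (7 libraries, each WT#1 library among them) and Hist1h2ad (7, likewise), of Hist4h4 (-0.55 without WT#1 library 2) and of Hist1h2bm (-0.50 without WT#1 library 3), and of no other of the 12.

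The knockout clones differed among themselves. Against WT#1, edgeR called 8 members lower in POLE4-KO#1 (7.93% of all genes), 25 in POLE4-KO#2 (6.95%) and 5 in POLE4-KO#3 (0.433%), with medians of -0.30, -0.55 and -0.44. At an adjusted p below 0.05 these were 26 (15.3%), 56 (17.4%) and 47 (5.54%). No member was called higher in any clone by edgeR or DESeq2 (3.62%, 4.56% and 2.56% of all genes), and none was higher at an unadjusted p below 0.05. The 5 called in POLE4-KO#3 were Hist1h1c (-0.61), Hist1h2bh (-0.62), Hist1h2bm (-0.60), Hist2h4 (-0.61) and Hist3h2ba (-0.94), and this count was 1 without WT#1 library 3 or without POLE4-KO#3 library 2, 2 without POLE4-KO#3 library 3 and 8 without WT#1 library 2. With the library number of the knockouts as a block it was also 8, with Hist1h2ba (-0.96), Hist3h2a (-0.67) and Hist3h2bb-ps (-0.94) added. The share of all genes called in that block fit was not taken. All these comparisons share the 3 WT#1 libraries.

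Contrasts between clones called few members. POLE4-KO#1 was lower than POLE4-KO#3 in 4 of 70 members (12.5% of all genes called lower), namely Hist1h1t, Hist1h2aa, Hist1h2ba and Hist3h2ba. POLE4-KO#2 was lower than POLE4-KO#3 in 4 (8.31% of all genes), namely Hist1h1t, Hist3h2a, Hist3h2ba and Hist3h2bb-ps. Between POLE4-KO#1 and POLE4-KO#2 edgeR called 0 of 70 (5.95% of all genes called lower and 4.02% higher), with 2 lower and 29 higher at an unadjusted p below 0.05. With so few calls, these shares are not read as a result about the members. No member was called higher over POLE4-KO#3 (3.99% of all genes for POLE4-KO#1 and 2.07% for POLE4-KO#2), with 16 and 1 members higher at an unadjusted p below 0.05. DESeq2 was not run on these contrasts. With the library number as a block among the knockout libraries (69 members tested), POLE4-KO#1 was also lower than POLE4-KO#3 in Hist3h2bb-ps (-0.88, edgeR adjusted p = 0.000228), POLE4-KO#2 was also lower than POLE4-KO#3 in Hist1h2ba (-1.15, 0.000665), and POLE4-KO#1 over POLE4-KO#2 gave Hist1h1t at -0.67 (0.00707) and Hist3h2ba at 0.58 (0.00135). In that fit 5 of 69 members were lower in POLE4-KO#1 than in POLE4-KO#3 (13.4% of all genes). Likewise 5 of 69 were lower in POLE4-KO#2 than in POLE4-KO#3 (9.55% of all genes). POLE4-KO#1 over POLE4-KO#2 had 1 member lower (7.1% of all genes) and 1 higher (4.58%). The shares of members in the block fit are likewise not read as a result about them.

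Some other measures moved with the POLE4-KO difference and others did not. The rows of other RNAs without poly(A), such as the 7SK and RNase P RNAs, had a median of -0.33 with 10 of 13 below 0, and their sum was at 12559 to 20033 CPM in the knockout libraries and 17854 to 20665 CPM in WT#1. The 11 variants had a median of -0.25, and H1f0 (-1.26), H1fx (-0.87) and H2afy2 (-0.88) were called lower, while H2afz (-0.30), H3f3a (-0.25) and H3f3b (-0.13) were not. The S phase genes had a median of 0.07, the histone mRNA factors 0.00, Slbp was at 0.04 and Npat at 0.18. By clone the S phase median was 0.19 in POLE4-KO#1, 0.05 in POLE4-KO#2 and -0.05 in POLE4-KO#3. The 49 G2 and M phase genes had a median of -0.08, with 35 below 0 (53% of all genes). By edgeR at an adjusted p below 0.05, 11 of them were lower (12.9% of all genes) and 2 higher. Their median was 0.00 in POLE4-KO#1, -0.07 in POLE4-KO#2 and -0.18 in POLE4-KO#3. Summed fibroblast markers were at 5.01 to 5.59 CPM in POLE4-KO#1, 9.14 to 11.1 CPM in POLE4-KO#2, 70.7 to 89.1 CPM in POLE4-KO#3 and 79.2 to 80.6 CPM in WT#1. The part of these measures in the histone difference was not tested.

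Across clones the direction was the same as in the rescue experiment but the spread was wider. MCM2-2A#1 entered as a January and a March unit, and WT#1 as an August and a March unit. The fit took such units as separate replicates, although units of 1 clone are not independent. MCM2-2A#2 and WT#1 are also lines of the rescue experiment. The summed CPM was lowest at 11303, with a median of 13186 and a highest value of 15962, in the MCM2-2A units, against 12176, 15386 and 18798 in the WT units. The genotypes overlapped, and the MCM2-2A mean was 86.2% of the WT mean (log2 ratio -0.21, n = 9 and 8). Members below 80% unique windows, whose reads may enter several rows, held 11520 of 13451 CPM in the MCM2-2A mean. In the WT mean they held 13320 of 15603 CPM. The log2 ratio of the other members was -0.24. In August alone the log2 ratio was -0.24. In March alone, with MCM2-2A sums of 13442 and 13186 CPM against 18798 CPM in the only WT unit, it was -0.49 with scale factors from the March libraries, and the January units analysed were all MCM2-2A, since WT#5, the January WT clone, was not analysed here.

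With experiment as a covariate, edgeR called 1 of 68 members tested lower (0.0602% of all genes) and 0 higher (0.554% of all genes, 0 members higher at an unadjusted p below 0.05, DESeq2 also 0). The called gene was Hist4h4, with 47.4, 62.7 and 93.0 CPM as lowest, median and highest values in MCM2-2A units and 77.6, 83.6 and 133 CPM in WT units (-0.62 ± 0.11, edgeR adjusted p = 0.00526). The units overlapped, through MCM2-2A#1 at 92.6 and 93.0 CPM, and the call was lost in August alone, without the covariate, without WT#1 and without any of 5 single clones. At an adjusted p below 0.05, 19 of 68 fell (1.79% of all genes) and 0 rose (2.59%). Rows that share reads are not separate observations. Of the 19 members with at least 80% unique windows, 6 fell at that limit. All 68 changes were below 0 (54.5% of all genes), with a median of -0.29 over the members and -0.02 over all 23265 genes, and for 0 members did the units separate (0.447% of all genes lower and 0.632% higher).

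H4 and H1 genes made up most of those that fell. They were 4 of 6 H1, 4 of 19 H2A, 0 of 19 H2B, 2 of 11 H3 and 9 of 13 H4 members, with medians of -0.40, -0.29, -0.26, -0.28 and -0.33, while 18 of 19 H2B genes were lower at an unadjusted p below 0.05. Hist1h1b had 121, 154 and 189.5 CPM as lowest, median and highest in MCM2-2A units and 176, 199 and 253 CPM in WT units (-0.46, edgeR adjusted p = 0.00630). Hist2h3b had 125, 138 and 215 CPM in MCM2-2A units and 166, 189 and 221 CPM in WT units (-0.45, 0.00366). Hist1h1e had 68.0, 109.5 and 168 CPM in MCM2-2A units and 113, 147 and 201 CPM in WT units (-0.68, 0.0178). In all 3 genes the medians were lower in MCM2-2A and the ranges overlapped.

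The Hist3 genes varied mainly by clone. Hist3h2ba was at 16.4 and 14.9 CPM in MCM2-2A#1, 14.9 CPM in MCM2-2A#2, 12.2 CPM in MCM2-2A#5 and 4.15 to 4.91 CPM in the other 5 MCM2-2A clones, against 19.3 and 20.6 CPM in WT#1, 18.5 CPM in WT#4 and 6.76 to 10.9 CPM in the other 5 WT clones. Clones of 1 genotype thus spanned more than the distance between the medians of the genotypes (4.91 and 10.7 CPM), and the change of -0.997 missed the test (edgeR adjusted p = 0.0721). Beside the histone genes, the variants had a median of -0.17, the S phase genes 0.02, the histone mRNA factors -0.06 and 10 rows of other RNAs without poly(A) -0.14.

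How far the members move together within a group was described by Pearson's r of log2 CPM after subtracting group means, which share library and depth and carry no test. Over 16 units of the clone experiment the median r over pairs of members was 0.81, and 0.49 among the 19 members with at least 80% unique windows. It was 0.28 in the rescue and 0.37 in the POLE4 experiment (12 units each), and 0.42 and 0.48 between genes of 1 type. In the clone experiment, Hist3h2ba (-0.28), Hist1h2aa (-0.17), Hist3h2bb-ps (-0.12), Hist3h2a (-0.10) and Hist1h1t (-0.03) did not follow the mean of the other members, whereas Hist1h1a (0.95) and Hist1h2al (0.95) did. Hist1h2ba was at 0.39 and Hist2h2be, which was not called in any comparison, at -0.07.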

How the data were processed

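The authors trimmed reads with Trimmomatic 0.39, aligned them with STAR 2.7.1a to mm10 and, per the labels of the POLE4 and clone libraries, counted them with featureCounts; the deposited tables hold raw counts for 55335 genes and 1146 repeats. The treatment of reads with several alignments is not given in the sources used here. For the rescue table, runs of 1 culture were summed; clone libraries were summed per clone and experiment, with experiment as a covariate. Values in 3 columns matching no labelled sample were not used. Genes and repeats were filtered (filterByExpr, count minimum 10), scaled by TMM and fitted with edgeR 4.0.16 (R 4.3.3, prior count 2), a quasi-likelihood test with Benjamini-Hochberg adjustment over all genes; DESeq2 1.42.0 was an alternative. The tests were also tested on simulated data. CPM use the TMM-scaled gene total. Named genes were called members (at most 12 a comparison), the 3 highest per type, linker, germ line, Hist2, Hist3 and Hist4 genes, and called or key genes of the other lists. The knockout library numbers paired the knockouts (same-number deviations correlated at 0.151 to 0.329, different-number ones at -0.200 to 0.00374), so a fit with that block is given where it changes a call; the WT#1 columns carry other numbers and entered it unblocked. The members and lists were chosen with earlier results of these data known.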

Additional observations from a re-analysis of the deposited data

Results flagged for a closer look

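In 38 checks of groups of 4 to 10 samples for a single sample apart from the rest, 4 were positive, where chance gives about 1 in 20. WT#1 culture 3 of the rescue experiment had a summed histone level of 11023 CPM, against 10138 CPM in the nearest culture. MCM2-2A#2 culture 2 had an H1 sum of 2010 (2009.5) CPM, against 1816 CPM. MCM2-2A#2 culture 1 had an H3 sum of 1501 CPM, against 1596 CPM, and an H4 sum of 1902 CPM, against 2222 CPM.

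Knockout clones differed from each other in 8 tests by edgeR with Benjamini-Hochberg adjustment. These were 4 of 70 members lower in POLE4-KO#1 than in POLE4-KO#3, against 12.5% of all genes. The other 4 of 70 were lower in POLE4-KO#2 than in POLE4-KO#3, against 8.31% of all genes. With 4 calls in each contrast, these shares are not read as a result about the members. For POLE4-KO#1 over POLE4-KO#3 the log2 changes were -1.80 in Hist1h1t (adjusted p = 2.69e-06), -1.36 in Hist1h2aa (0.00228), -1.23 in Hist1h2ba (0.00765) and -0.87 in Hist3h2ba (0.000413). For POLE4-KO#2 over POLE4-KO#3 they were -1.14 in Hist1h1t (0.000251), -0.74 in Hist3h2a (0.00237), -1.45 in Hist3h2ba (7.43e-06) and -1.08 in Hist3h2bb-ps (0.00531).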

How the results depend on the processing

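No called gene or summed level changed sign under any alternative. Of the recounts of called members, 87 stayed within 1.5 times the main count, 20 were higher and 29 lower; 107 summed levels moved by less than the replicate spread and 1 by more. For MCM2-2A#2 over WT#1 the 1 call became 0 with DESeq2 size factors in edgeR, a count minimum of 50, the first run alone, the replicate block or (chosen after seeing the data) a fit without MCM2-R#2, 2 with run as a covariate and 37 at an adjusted p below 0.05 with no fold limit. For MCM2-R#2 over MCM2-2A#2 the 1 call became 2 with genes of at least 1 count, 9 with no fold limit, and 0 with the first run or run as a covariate. For MCM2-R#2 over WT#1 the 0 calls became 1 with DESeq2, with genes of at least 1 count and with no fold limit. With no fold limit the counts were 55 for POLE4-KO, 26 for POLE4-KO#1, 56 for POLE4-KO#2 and 47 for POLE4-KO#3, and for POLE4-KO#3 12 with genes of at least 1 count and 8 with the replicate block of the knockout libraries (chosen after seeing the data), which gave 14, 9 and 29 for POLE4-KO, POLE4-KO#1 and POLE4-KO#2. Among named genes of POLE4-KO#2 the block added calls of Hist1h4f, Hist2h2aa2 and Hist2h3c2, and no named gene lost its call under it. The share of all genes called with this block was not taken, so its counts are not compared with a background. In the clones the 1 call became 2 with DESeq2, 19 with no fold limit, 4 with single libraries, with or without the replicate block, and 0 in August alone, March alone, without the covariate or without WT#1; the summed log2 ratio was -0.49 in March alone, scaled on those libraries. The cause of these changes was not tested.

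Leaving out 1 culture, library or clone gave 0 to 1 calls for MCM2-2A#2 over WT#1, 0 to 1 for MCM2-R#2 over MCM2-2A#2, 0 to 0 for MCM2-R#2 over WT#1, 9 to 15 for POLE4-KO, 7 to 9 for POLE4-KO#1, 18 to 35 for POLE4-KO#2, 1 to 8 for POLE4-KO#3 and 0 to 2 for the clones. The summed log2 ratios ranged, in that order, -0.28 to -0.24, 0.11 to 0.15, -0.15 to -0.10, -0.44 to -0.34, -0.30 to -0.20, -0.57 to -0.45, -0.50 to -0.37 and -0.26 to -0.17. Restricted to members with at least 80% unique windows, chosen after seeing the data, they were -0.29, 0.17, -0.12, -0.45, -0.30, -0.56, -0.50 and -0.24.

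Rescue cultures of the same number correlated at -0.12 to 0.40 (median r 0.02 over 12 pairs), against -0.30 to 0.26 over 36 pairs of different number. Cultures numbered 3 correlated at 0.30 to 0.40 in every pair of lines and those numbered 1 at -0.01 to 0.02. Cultures numbered 2 and 4 correlated at 0.34 and 0.24 between WT#1 and MCM2-2A#2. With MCM2-R#2 in the pair they were at -0.12 to 0.03. The numbers were not taken as pairs. With the replicate block 0, 1 and 0 members were called in the 3 rescue comparisons. Counts without a fold limit were not taken with that block. WT#1 columns of the POLE4 table carry no number shared with the knockouts, so WT#1 libraries were not paired. Reads shared between near-identical copies limit single rows, and members at a few CPM, such as Hist1h2ba, are limited by depth.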
